A study of Rattus norvegicus with 10 samples.

Results

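The cytosolic ribosomal protein genes were examined in epithelium released from the distal colon of rats. Members were rows of the deposited gene table whose symbol was Rpl or Rps followed by a digit, with the Rps6k kinases left out. The rule took 85 of 23422 rows and 84 symbols, because Rps19 had 2 rows. Of these rows, 43 held canonical proteins of the large subunit, 31 held canonical proteins of the small subunit, and 11 held paralogs or other genes. A filter on low counts left 75 rows for testing, which were 40 large subunit, 27 small subunit and 8 other rows. The rats, males of the strain Wistar Munich, were kept singly in metabolic cages on standard chow. Of 12 rats, 6 were switched to the same chow with 1% w/w sodium cholate, a bile acid salt, and the diets lasted 10 days. Cells were shaken off inverted colon sacs in a buffer with EDTA, and for each diet the 5 extracts with the most concentrated RNA were sequenced, so the choice of rats was not random. The controls were rats 1, 2, 5, 6 and 9, and those fed cholate were rats 3, 4, 7, 8 and 11. Values for single rats are given in this order.

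A cytosolic ribosome has a large subunit, which forms peptide bonds, and a small subunit, which reads the mRNA. Each subunit is built in the nucleolus from ribosomal RNA and about equal numbers of copies of each protein, and proteins that find no partner are degraded. The mRNAs of these proteins are among the most abundant in dividing epithelium, and in vertebrates most begin with a run of pyrimidines, the terminal oligopyrimidine tract, through which mTOR signalling adjusts their translation. Mammalian genomes also carry many intronless copies of these genes, made by reverse transcription of the mRNA, and most of the copies are pseudogenes.

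Library totals ran from 14337356 counts in cholate rat 11 to 45285762 in cholate rat 4. In 3 libraries, those of control rat 9 and cholate rats 8 and 11, short genes were high relative to long ones. The slope of the log2 deviation of a gene from its mean on log2 coding length, over 12310 tested genes that are not members, was -0.13, -0.25 and -0.17 in these 3 libraries and ran from 0.032 to 0.13 in the other 7. Most ribosomal protein genes are short, with a median coding length of 470.0 bases in the canonical rows against 1411 in all genes tested, so results are also given for the 7 other libraries. The epithelial marker Epcam ran from 2214 to 2883 CPM (counts scaled by depth, on the effective library size from the trimmed mean of M values) in controls and from 1890 to 2723 CPM on cholate. The 15 epithelial markers summed to 21449 to 35682 CPM in controls and 33056 to 50329 CPM on cholate, and 12 of them had a positive log2 change. The 13 crypt and cycling cell markers summed to 711 to 869 CPM in controls and 865 to 1297 CPM on cholate. At an adjusted p under 0.05 in the edgeR quasi-likelihood test, 6.48% of all genes tested were higher on cholate and 7.28% were lower. By the same rule 5 of 15 epithelial markers and 5 of 13 crypt and cycling cell markers were higher, and 1 of those 13 was lower. The counts of 1 or 2 markers below are from short lists. Of 4 tested smooth muscle markers 2 were lower, among them Des, desmin, at 32.2 to 50.9 CPM in controls and 2.24 to 6.15 CPM on cholate. The summed level of all 8 smooth muscle markers was 171 to 261 CPM in controls and 147 to 282 CPM on cholate. Of 8 tested T and NK cell markers 2 were lower, and the 13 markers summed to 20.8 to 45.9 CPM in controls and 17.0 to 35.6 CPM on cholate. Of 3 tested fibroblast markers 1 was lower, and the 9 markers summed to 15.5 to 19.7 CPM in controls and 16.6 to 30.2 CPM on cholate, with Col1a2 at 0 counts. Of 6 tested endothelial and blood markers 1 was lower, and the 9 summed to 23.2 to 57.1 CPM in controls and 12.0 to 28.5 CPM on cholate. Of 2 tested markers of enteric neurons and glia 1 was lower, and the 9 summed to 3.36 to 8.52 CPM in controls and 1.63 to 2.81 CPM on cholate. These sums did not overlap, and 6.80% of single genes tested had cholate values that all lay below the control values. Of the B cell, macrophage and granulocyte lists, 1 of 15 tested markers was lower and 0 were higher. The part of these cells in the results below was not tested, and in such bulk samples fewer cells of a type and less RNA per cell cannot be told apart.

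The levels of the canonical rows differed widely, although the proteins enter the ribosome in about equal numbers. Per kilobase of coding length, Rpl41, Rpl3 and Rpl23 were among the 5 highest in controls. Rpl41 encodes a very short basic peptide of the large subunit (coding length 78 bases) and stood at 4076 ± 704 CPM per kilobase (SD, n = 5). Rpl3, which lies close to the site of peptide bond formation, stood at 795 ± 77.7 CPM per kilobase, and Rpl23 at 681 ± 82.0 CPM per kilobase. Per kilobase of whole exons, which span 446 bases, Rpl41 stood at 713 CPM.

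At the other end of the tested canonical rows were Rpl36a, Rps13, Rps14, Rps4x and Rpl38, with means of 4.01 to 5.58 CPM per kilobase of coding length in controls. The highest tested row exceeded the lowest by 1017 times in the large subunit and by 223 times in the small subunit. The large subunit span rests on Rpl41, whose level is divided by 78 coding bases. The median level was 79.8 CPM per kilobase for the 40 large subunit rows and 25.5 for the 27 small subunit rows. The 5 rows with the most CPM held 49.6% of the summed CPM of the large subunit and 78.4% of that of the small subunit.

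**Figure D1:**
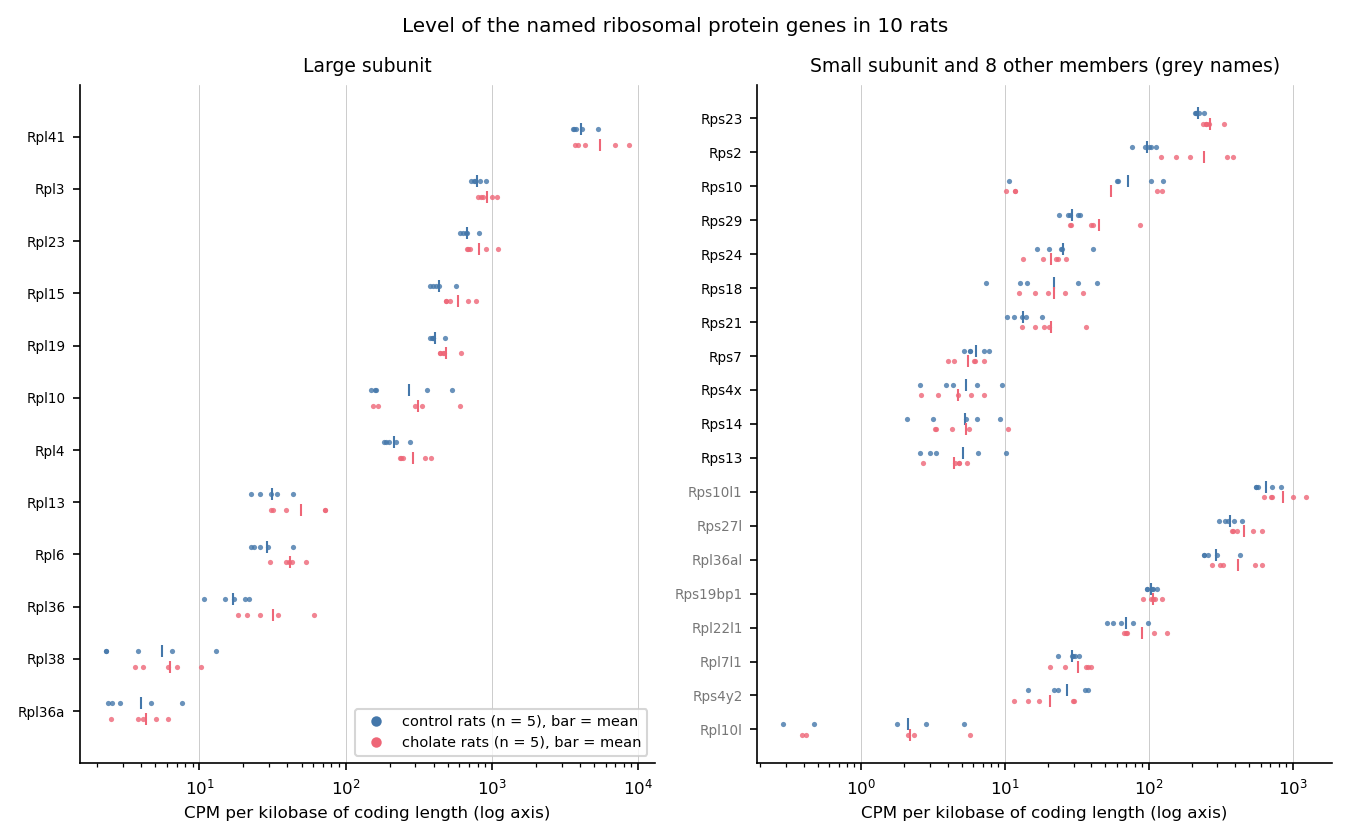
Level of 31 tested ribosomal protein genes named in the text (12 large subunit, 11 small subunit and 8 other rows), in CPM per kilobase of coding length on a log axis, in the 5 control rats (blue) and the 5 cholate rats (red), with a bar at each mean. Control means of the canonical rows run from 4.01 for Rpl36a to 4076 for Rpl41, a span far wider than the distance between the diets for any row.

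Several canonical proteins had no counts at their own gene. Rpl7a, Rpl8 and Rpl35a of the large subunit, Rps9 of the small subunit and both rows of Rps19 had 0 counts in all 10 libraries, and Rps6, the small subunit protein phosphorylated by the Rps6k kinases, had 1 count in all. A count of 0 allows up to 3 counts per library, which is 0.0616 CPM in the deepest library and 0.228 CPM in the shallowest, counting error alone considered. Rpl30l1, Rpl3l and Rpl39l had 4, 10 and 15 counts in all and were not tested either. Rpl3l is known from striated muscle and Rpl39l from testis in mammals.

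The counts of many other canonical proteins lay in copies elsewhere in the genome. The table holds 126 further rows, with locus names of their own, whose product is named as a cytosolic ribosomal protein, and 87 of them have a single coding block and so no intron in the coding sequence. These 126 rows held 3034722 counts over the 10 libraries, against 2290320 in the 85 members, and 91.1% of the counts of the copies were in the rows with a single block. For 46 canonical symbols there was at least 1 such copy, for 22 the copies held more counts than the gene, and for 14 the gene held less than 10% of the joint counts. Of the genes with 0 counts, only Rpl8 had many in a copy. The copy of Rpl7a held 39 counts, that of Rps19 held 4, that of Rps9 held 0, and no copy of Rpl35a held more than 583. The copy of Rps6 held 0 counts as well. These copies of Rps6 and Rps9 have 5 and 4 coding blocks, so they are not intronless. Where the reads of these genes went was not tested.

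Rps18, of the small subunit head, is the most extreme by counts. Its gene on chromosome 20 had 2472 counts, or 22.1 ± 15.4 CPM per kilobase in controls, whereas its intronless copy LOC100360679 (rn6 chromosome 10, 104521700 to 104522246, minus strand) had 451950 counts, or 3516 ± 661 CPM per kilobase. Rps14 had 592 counts and its copy LOC100911847 on chromosome 5 had 369511. Rpl8 had 0 counts and its copy LOC100360117 on chromosome 3 had 215954 counts, or 920.0 ± 172 CPM per kilobase. Rps10 had 7230 counts, against 97919 in the single-block row Rps10l1, which the symbol rule also took. The reads were aligned by BWA-MEM, which does not model introns, and the sources used here do not say how reads matching several places were counted. The level of a single row is therefore that of a place in the annotation and cannot be read as the level of the protein's mRNA. The RefSeq gene table of the GRCr8 assembly names 1059 loci like the canonical symbols, and across 74 canonical rows the Spearman correlation of control level per coding length with the number of like-named loci was -0.15, a description over rows that share libraries.

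**Figure D2:**
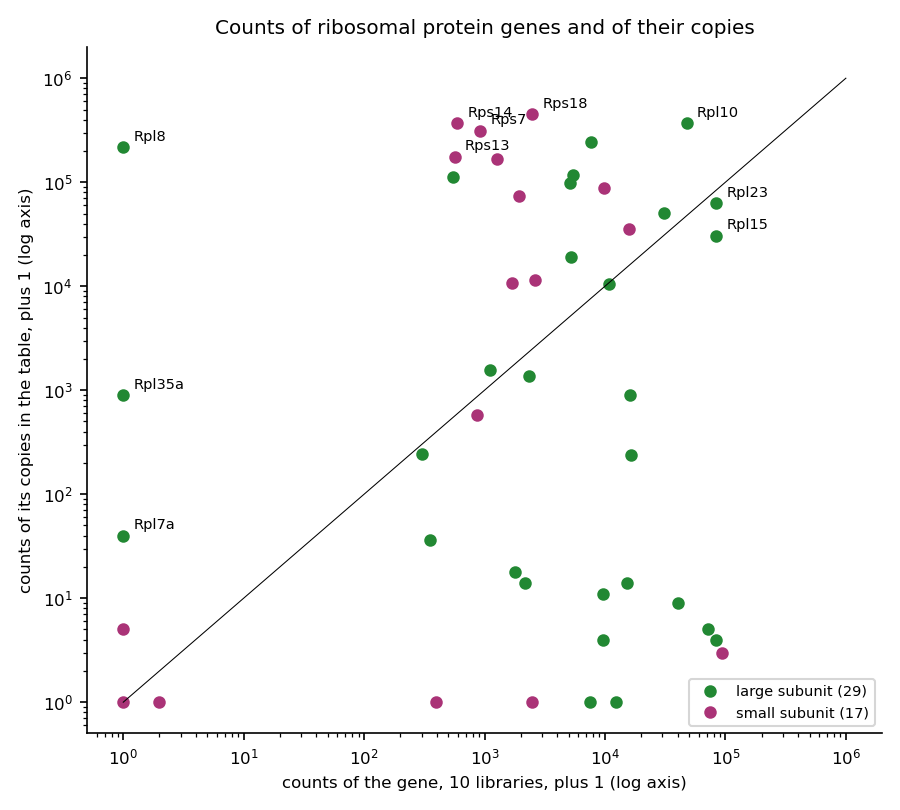
Counts of the 46 canonical ribosomal protein genes that have a named copy in the table (x axis, plus 1) against the counts of their copies (y axis, plus 1), both summed over 10 libraries on log axes, with large subunit genes in green, small subunit genes in purple and the line of equality. The 22 genes above the line include Rps18 with 2472 counts against 451950 in its copy, and Rpl8, Rpl35a and Rpl7a at 0 counts. The copy of Rpl7a held only 39 counts, and no copy of Rpl35a held more than 583.

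Promoter windows from the RefSeq table of GRCr8 were found for 68 of the 85 rows, by gene ID or else by symbol. The tract was sought as a run of at least 6 C or T letters, on the transcript's strand, within 10 bases either side of the annotated start. It was present in 42 of 58 canonical rows (72.4%) and in 1 of 10 other rows, against 18.7% of the windows of 27457 genes. The letters CTTCCG, on either strand, stood within the 300-base windows of 32 of the 58 canonical rows (55.2%) and of 17.4% of all genes, and the CTTCC of this motif can lie inside a pyrimidine run. The 7 windows below run from 25 bases before the start to 15 bases from it, with the pyrimidine run in capitals. Rps2 is shown as the gene that changed with diet, Rps10 and Rpl10 as genes that varied between rats, Rps18 and Rps14 as genes whose counts lay in copies, and Rpl41 and the paralog Rps27l as genes without a run.
Rps2 (chr10:14251823-14251862, plus strand): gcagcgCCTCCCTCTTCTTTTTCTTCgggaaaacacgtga
Rps10 (chr20:5700730-5700769, minus strand): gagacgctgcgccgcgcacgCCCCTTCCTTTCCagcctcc
Rpl10 (chrX:157205825-157205864, plus strand): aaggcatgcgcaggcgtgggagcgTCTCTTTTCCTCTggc
Rps18 (chr20:4933720-4933759, plus strand): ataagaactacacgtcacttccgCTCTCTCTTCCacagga
Rps14 (chr18:56498235-56498274, plus strand): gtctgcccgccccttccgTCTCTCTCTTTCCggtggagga
Rpl41 (chr7:1563483-1563522, minus strand): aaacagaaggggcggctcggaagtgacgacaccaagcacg
Rps27l (chr8:76443633-76443672, plus strand): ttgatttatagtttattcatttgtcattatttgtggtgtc
The run of Rps2 is 20 letters long and lies mostly before the annotated start, and those of Rps10, Rpl10 and Rps14 are 13 letters long and reach across it. These matches describe letters in a window and are not sites.

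The comparison of the diets asked whether 10 days of cholate changed the expression of these genes. The study's design text asks for an adjusted p below 0.01 with a change of more than 2 times. By that rule 0 of the 75 tested members were higher and 0 were lower on cholate, against 1.10% and 2.12% of all 12385 genes tested. At an adjusted p under 0.05 with no limit on the fold, 1 member was higher and 0 were lower, against 6.48% and 7.28% of all genes. Those tests are edgeR's quasi-likelihood test with Benjamini-Hochberg adjustment over all genes. At an unadjusted p under 0.05, 12 of the 75 members were higher and 0 were lower, against 1799 and 1787 of the 12385 genes. The higher share was close to that of all genes. By DESeq2 the authors' rule called 1 member, Rps2, against 266 higher and 522 lower of 12380 genes.

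The log2 changes of cholate over control were small and mostly positive. Their median was 0.33 over the 40 large subunit rows, of which 38 were positive, and 0.26 over the 27 small subunit rows, of which 20 were positive, against -0.014 over all genes tested. Of all 12385 genes tested 6061 were positive, and the positive shares of short genes are given below. Without cholate rat 8 the medians were 0.18 and 0.056, and leaving out other single rats gave up to 0.44 and 0.36 (both without cholate rat 7). The summed level of the 85 members was 7237, 6846, 7783, 6933 and 9769 CPM in the 5 controls. It was 8223, 7973, 7674, 13520 and 11315 CPM in the 5 rats on cholate. The groups overlapped, and control rat 9 and cholate rats 8 and 11 were the highest of their diets. Members held 0.785% ± 0.0801 of all counts in controls and 0.938% ± 0.160 on cholate (SD, n = 5 each).

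The log2 change fell with coding length among genes that are not members, but not across the canonical members. Over the 67 tested canonical rows the Spearman correlation of log2 change with coding length was 0.16, a description over rows that share libraries. Among genes that are not members, the median log2 change was 0.26 up to 300 bases of coding length, 0.22 from 300 to 600 bases, 0.085 from 600 to 1000 bases, -0.025 from 1000 to 2000 bases and -0.14 above that. Up to 300 bases the 9 canonical members had a median of 0.22, below that of the other genes. In the class from 300 to 600 bases the 40 canonical members had a median of 0.29, and in the class from 600 to 1000 bases the 16 canonical members had a median of 0.36. The 2 canonical members from 1000 to 2000 bases had a median of 0.33. With an offset for length fitted in each library, the medians were 0.15 for the large subunit, with 34 of 40 positive, and 0.08 for the small subunit, with 16 of 27 positive. In the 7 libraries other than control rat 9 and cholate rats 8 and 11, the medians were 0.14 with 32 positive and 0.05 with 18 positive. In those 7 libraries 6 members were higher (among them Rpl4, Rpl6, Rpl15, Rpl19 and Rps2) and 1 was lower (Rps10) at an adjusted p under 0.05, against 13.6% and 15.8% of 12620 genes, and that choice of libraries was made after seeing the data.

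**Figure D3:**
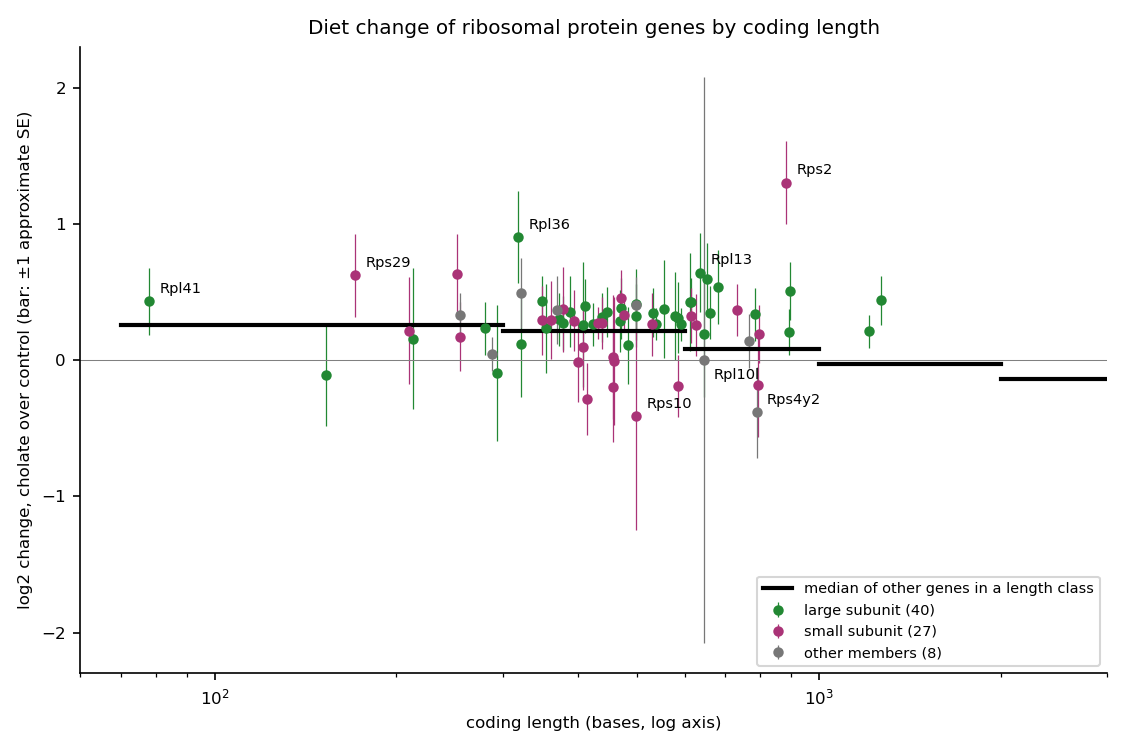
Log2 change of cholate over control of the 75 tested members against coding length (log axis), with bars of ±1 approximate standard error, and black lines at the median change of non-member genes in each length class. Most members lie near the lines at 0.26 and 0.22, and Rps2 at 1.30 lies farthest above.

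Rps2 rose on cholate. It encodes a small subunit protein at the entry of the mRNA channel (GeneID 83789, rn6 chromosome 10, 14088171 to 14090020, plus strand). Its level was 98.5, 67.3, 88.9, 83.7 and 92.1 CPM in the 5 controls, and 108, 171, 136, 311 and 338 CPM in the 5 rats on cholate. The cholate values lay above the control values in every rat, closest between control rat 1 and cholate rat 3. Of all genes tested, 6.30% had cholate values that all lay above the control values and 6.80% had values that all lay below, and Rps2 was the only such member. The log2 change was 1.30 (SE 0.30, adjusted p = 0.0176, edgeR quasi-likelihood test). It was 1.23 without control rat 2, where the adjusted p was 0.0523, and 0.74 (adjusted p = 0.0148) without control rat 9 and cholate rats 8 and 11. No row of the table is named as a copy of Rps2, whereas GRCr8 holds 36 loci named like it.

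The libraries were also scaled to the canonical members alone, which sets each gene against the family as a whole. A canonical gene is itself part of that scale. In that fit 1 member was higher and 0 were lower at an adjusted p under 0.05, against 2.41% and 13.6% of all genes, and the log2 change of Rps2 was 0.92 (adjusted p = 0.0157). Across the 10 libraries the rows most like Rps2 in log2 CPM, out of 116 tested members and copies, were LOC100362149 (a copy of Rps20, Pearson r = 0.93) and LOC108352650 (a copy of Rps29, r = 0.90). These correlations span both diets, so they are not separate from the changes with diet. LOC100362149 was low, at 0.629 to 1.58 CPM in controls. Of the 41 tested copies 1 was higher and 0 were lower at an adjusted p under 0.05, against 6.48% and 7.28% of all genes. That copy was LOC108352650, at 19.8 to 33.0 CPM in controls and 32.0 to 61.4 CPM on cholate. Its log2 change was 0.85 (SE 0.23, adjusted p = 0.0317, edgeR quasi-likelihood test), and 34 of the 41 tested copies had a positive change, with a median of 0.23.

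The next highest changes did not pass the test over all genes. Rpl36, a large subunit protein, was at 6.55, 5.52, 6.90, 4.73 and 3.43 CPM in the 5 controls and at 6.68, 10.9, 8.22, 19.3 and 5.84 CPM in the 5 rats on cholate. The groups overlapped, and cholate rat 8 was the highest. The log2 change was 0.90 (SE 0.34, adjusted p = 0.102, edgeR; 0.0400 by DESeq2). Rpl13, Rps21 and Rps29 had log2 changes of 0.64, 0.63 and 0.62, with adjusted p from 0.172 to 0.207 in the same edgeR test. Without cholate rat 8 the log2 change was 0.56 for Rpl36, 0.34 for Rps21 and 0.27 for Rps29, and the lowest value for Rpl13 with 1 rat left out was 0.45.

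Of the 67 tested canonical rows 9 had a negative log2 change, and 6 of the 9 were among the 18 genes whose copies hold more counts than they do. The median log2 change was 0.18 over those 18 genes, 0.33 over the 18 genes with fewer counts in copies and 0.29 over the 31 with none. Rows that are themselves members were not counted as copies. Rps10 is therefore among the 31, although Rps10l1 holds more counts than it does. The 5 lowest were Rps10 at -0.41, Rps24 at -0.29, Rps13 at -0.20, Rps7 at -0.19 and Rps4x at -0.18, all with adjusted p above 0.5 in the edgeR test, where the smallest was 0.531. Rps13 and Rps7 hold under 1% of the joint counts with their copies, and with the copies added to the gene their changes were 0.25 and 0.20.

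Rps10 varied between rats more than any other tested canonical row. It encodes a small subunit protein of the head (rn6 chromosome 20, 7215762 to 7220331, minus strand). Its level was 30.0, 5.32, 30.3, 51.6 and 62.6 CPM in the 5 controls, and 5.83, 5.89, 5.11, 62.0 and 57.2 CPM in the 5 rats on cholate. Control rat 2 and cholate rats 3, 4 and 7 were low and the other 6 rats were high, so both diets held both levels. The highest library exceeded the lowest by 12.2 times, against a median of 2.43 times over the 67 canonical rows. Its log2 change of -0.41 (SE 0.83, adjusted p = 0.802, edgeR) became -2.36 (adjusted p = 0.0203) in the 7 libraries without control rat 9 and cholate rats 8 and 11, which leaves out both high cholate rats. Rps10l1, the intronless row on chromosome 6, did not follow that split. It was at 279, 279, 360.2, 285 and 411 CPM in the 5 controls and at 356, 353, 314, 615 and 504 CPM in the 5 rats on cholate.

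Rpl10, an X-linked large subunit protein that is among the last to join the subunit, also fell into separate levels. It was at 104, 96.2, 231, 103 and 346 CPM in the 5 controls, and at 107, 214, 99.8, 391 and 191 CPM in the 5 rats on cholate. Control rats 1, 2 and 6 and cholate rats 3 and 7 lay between 96.2 and 107 CPM, and the other 5 rats lay at 191 CPM or above. Its copy RGD1563861 (rn6 chromosome 18, 14731669 to 14732431, plus strand) was at 658, 646, 1466, 738 and 1710.2 CPM in the 5 controls and at 733, 1576, 735, 2066 and 1013 CPM in the 5 rats on cholate, lowest in the same rats. Its copy RGD1564963 on chromosome 7 ran from 145 to 432 CPM in controls and from 140.0 to 635 CPM on cholate. Among 116 rows these copies were the most like Rpl10 over the 10 libraries, with Pearson r of 0.97 for RGD1563861 and 0.99 for RGD1564963. Whether reads were shared between them was not tested. The log2 change with diet was 0.19 for Rpl10 (adjusted p = 0.838, edgeR), and both diets held both levels.

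The steadiest canonical rows were Rpl3 and Rps23. Rpl3 was at 929, 869, 998, 910.2 and 1109.5 CPM in the 5 controls and at 1046, 975, 1023, 1317 and 1214 CPM in the 5 rats on cholate. The groups overlapped, with control rats 5 and 9 above the lowest cholate rat, and the log2 change was 0.21 (SE 0.12, adjusted p = 0.277, edgeR). Rps23, a small subunit protein of the decoding centre, ran from 90.4 to 104 CPM in controls and from 103 to 143 CPM on cholate, with a log2 change of 0.27 (SE 0.11, adjusted p = 0.144, edgeR).

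**Figure D4:**
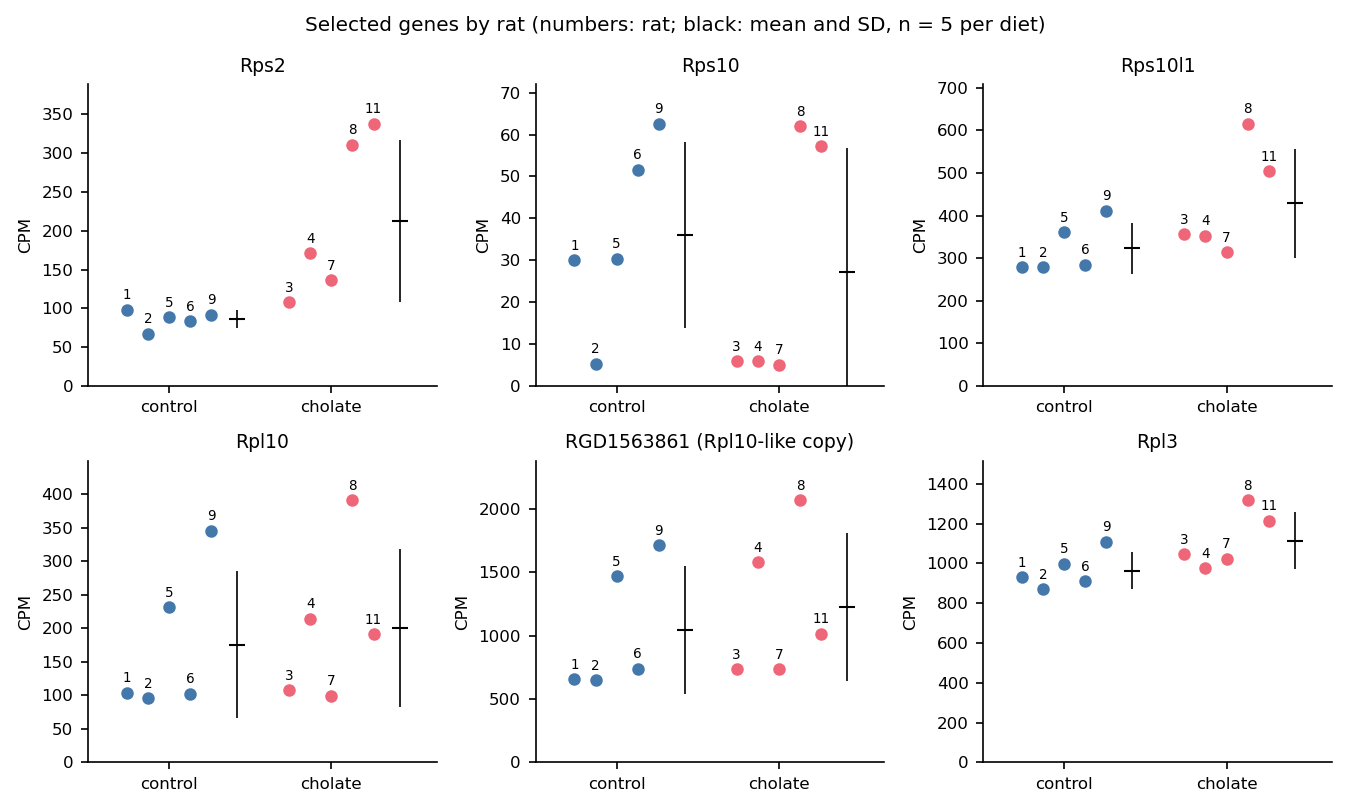
Level in CPM of Rps2, Rps10, Rps10l1, Rpl10, its copy RGD1563861 and Rpl3 in each rat (numbered points, control blue and cholate red), with the mean and SD of each diet in black. Rps2 is at 67.3 to 98.5 CPM in controls and at 108 CPM or above on cholate, whereas Rps10 and Rpl10 have low and high rats in both diets.

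The subunits were compared within each rat by the log2 ratio of their geometric mean CPM. The ratio of large to small was 1.27, 1.29, 1.18, 1.29 and 1.19 in the 5 controls, and 1.35, 1.34, 1.42, 1.33 and 1.37 in the 5 rats on cholate. The diets did not overlap, and the mean difference was 0.12 on the log2 scale. By summed CPM the ratio was 1.41 to 1.48 in controls and 1.37 to 1.46 on cholate, a difference of -0.025, so the direction depended on how the members were combined. With the counts of the copies added to their genes, the geometric means of the subunits were nearly equal, with a log2 ratio of -0.026 to 0.088 in controls and 0.049 to 0.14 on cholate. The diets then overlapped, and the difference was 0.060. Of the 18 genes outweighed by their copies 10 were small subunit genes, and these 10 had a median log2 change of 0.060, against 0.27 for the 15 small subunit genes with no counted copy. Rps10 is among these 15, because Rps10l1 is a member and was neither counted as a copy nor added to Rps10. In the large subunit the medians were 0.31 for the 8 genes outweighed by copies and 0.32 for the 16 with none counted.

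**Figure D5:**
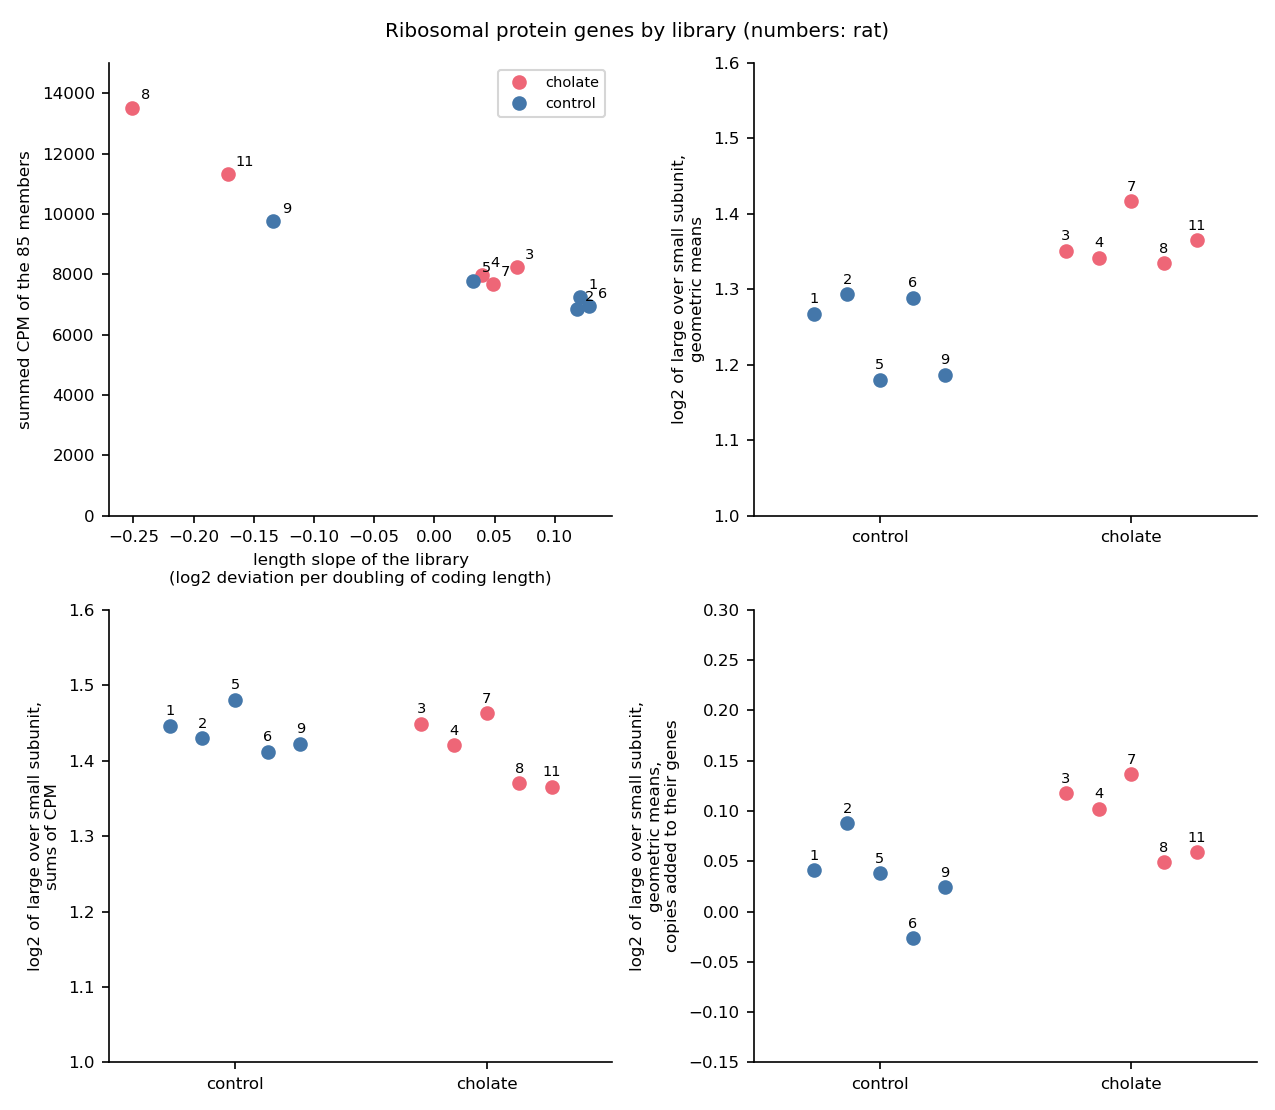
Values of the 10 libraries, numbered by rat, with control in blue and cholate in red. The first panel plots the summed CPM of the 85 members against the length slope of the library, and control rat 9 and cholate rats 8 and 11 have negative slopes and the highest sums, 9769 to 13520 CPM. The other panels plot the log2 ratio of large to small subunit, by geometric mean (control 1.18 to 1.29, cholate 1.33 to 1.42), by sum of CPM, and by geometric mean with copies added, where the diets overlap.

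The 8 tested rows that are not canonical had log2 changes from -0.38 to 0.50, 7 of them positive, and none passed the edgeR test at an adjusted p under 0.05 (the unadjusted p was under 0.05 in 0 of the 8). Rps10l1, Rps27l and Rpl36al were well above most canonical rows, at 648 ± 121, 367 ± 52.8 and 295 ± 80.3 CPM per kilobase of coding length in controls. Rps27l is a paralog of Rps27 induced by p53, and Rpl36al is an intronless paralog of Rpl36a, which itself stood at 4.01 ± 2.22 CPM per kilobase. Their log2 changes were 0.41 for Rps10l1, 0.33 for Rps27l and 0.50 for Rpl36al. Rpl22l1, the paralog of Rpl22, was at 69.8 ± 19.2 CPM per kilobase with a log2 change of 0.37. Rpl7l1, a relative of Rpl7 that acts in pre-ribosomes, was at 29.2 ± 3.58 CPM per kilobase with a change of 0.14. Rps19bp1, which binds Rps19 and is not a ribosomal protein, was at 104 ± 7.04 CPM per kilobase with a change of 0.044. Rps4y2, whose row overlaps the antisense gene Tmtc1, was at 26.8 ± 9.94 CPM per kilobase with a change of -0.38. Rpl10l, a paralog that stands in for Rpl10 in mouse spermatogenesis, was at 2.11 ± 2.02 CPM per kilobase with a change of 0.00027, and this sign turned under several settings.

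Some cytosolic ribosomal proteins have symbols that the rule did not take. Of 6 tested genes (among them Fau, Rack1, Rplp0 and Rpsa), 0 passed the edgeR test at an adjusted p under 0.05, and their median log2 change was 0.36. At an unadjusted p under 0.05 in that test, 3 of the 6 were higher, against 1799 of the 12385 genes. Rplp0, a protein of the stalk of the large subunit, was at 1175 to 1532 CPM in controls and 1313 to 1972 CPM on cholate. Rplp2 had no counts.

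Genes of the mitochondrial ribosome and of ribosome assembly were examined beside the members, with no test of the difference between the lists. Of 74 tested mitochondrial ribosomal protein genes 19 were higher and 0 lower at an adjusted p under 0.05 in the edgeR test, against 6.48% higher among all genes, and their median log2 change was 0.48. Mrps22, of the mitochondrial small subunit, was at 47.0 to 60.4 CPM in controls and 72.2 to 102.6 CPM on cholate, with no overlap, and its log2 change was 0.73 (SE 0.13, adjusted p = 0.00615). In the 7 libraries without control rat 9 and cholate rats 8 and 11, 41 were higher (55.4%) and 1 was lower, against 13.6% and 15.8% of all genes. With single rats left out, the fewest higher were 5 (6.76%), without control rat 2, against 3.38% of all genes. The most were 43 (58.1%), without control rat 9, against 8.41% of all genes.

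Of 63 tested genes of cytosolic ribosome biogenesis 13 were higher (20.6%, against 6.48% of all genes) and 0 lower, with a median log2 change of 0.38. Emg1, a methyltransferase of 18S ribosomal RNA, rose by the authors' rule as well, from 28.5 to 41.9 CPM in controls to 59.8 to 88.2 CPM on cholate, with a log2 change of 1.17 (SE 0.15, adjusted p = 0.00144, edgeR). Eif6, which keeps the new large subunit from joining the small one, went from 151 to 227 CPM in controls to 261 to 360.3 CPM on cholate, with a log2 change of 0.80 (adjusted p = 0.00738, edgeR). In the 7 libraries named above 36 were higher (57.1%, against 13.6% of all genes). With single rats left out, the fewest were 6 (9.52%), without control rat 1 or 2, against 3.32% and 3.38% of all genes. The most were 19 (30.2%), without control rat 9, against 8.41% of all genes.

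The other lists held 5 or fewer called genes each. Of 37 tested translation factors 4 were higher (Eif2s2, Eif3c, Eif4a1 and Eef1g), 10.8% of the list against 6.48% of all genes, with a median log2 change of 0.25 over the list. That count ran from 0 to 10 when single rats were left out. It was 0 without control rat 1, 2 or 6, where 3.32% to 3.69% of all genes were higher. It was 10 (27.0%) without control rat 9, against 8.41% of all genes, and 16 (43.2%) in the 7 libraries, against 13.6%. In 4 further lists the called share was close to the 6.48% of all genes. Of 16 genes of RNA polymerase I and rDNA transcription 1 was higher, Zfp593, which is not a polymerase subunit. Of 18 chaperones and importers of ribosomal proteins 1 was higher, Nap1l1, a nucleosome assembly protein, with a log2 change of 0.63. Of 23 genes that control ribosomal protein synthesis 1 was higher, Mlx, and of 15 genes of ribosome quality control 1 was higher, Eif4e2. None of the genes in these 5 lists was lower at an adjusted p under 0.05 in the edgeR test. At an unadjusted p under 0.05 the only lower ones were 4 of the 23 genes that control ribosomal protein synthesis, against 1787 of the 12385 genes.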

How the data were processed

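Stranded poly(A) libraries were sequenced, and per the submitters' processing notes reads were demultiplexed with bcl2fastq 1.8.4, aligned to rn6 with BWA 0.7.12-r1039 and scaled with edgeR 3.16.2. The authors deposited raw counts per gene, which were used for every test, and a normalized signal, CPM on the effective library size, which was not tested. The deposited effective length equals the coding bases in all 23422 rows, so levels are per coding length where exon length had been planned. The other deposited length is the span from the first to the last coding base and was not used. The sources used here do not name the counting program, its strand setting or its handling of reads with several matches.

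Work used R 4.3.3, edgeR 4.0.16, limma 3.58.1 and DESeq2 1.42.0. Counts were filtered by filterByExpr, scaled by TMM and tested by the edgeR quasi-likelihood test with robust estimation and diet as the only term. Benjamini-Hochberg adjustment ran over 12385 genes. Standard errors are approximate, the absolute log2 change divided by the root of F. Geometric means used log2(CPM + 0.5). The fit was tested on simulated data. Each rat gave 1 library. SDs and standard errors include variation between rats, whereas the floors for 0 counts cover counting error only.

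Members and lists were chosen with earlier results of these data known. The named genes were the members passing the test, the 5 highest and lowest canonical rows by level and by change, all others tested or not, and up to 3 genes per further list. Rpl10, Rps23, Rps18, Rpl8, their copies and Rplp0 were chosen after their values were seen. Some genes that these rules take are not reported here.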

Additional observations from a re-analysis of the deposited data

Results flagged for a closer look

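Of 50 groups of 5 libraries examined for a single library far from the rest, 1 stood out, and chance gives about 1 in 20. Rps29, a zinc-binding protein of the small subunit, reached 14.8 CPM in cholate rat 8, while the other 4 cholate rats lay between 4.86 and 7.01 CPM. That library is among the 3 with a negative length slope, and the part of the slope in this value was not tested.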

How the results depend on the processing

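No paired analysis was possible because each rat number belongs to a single diet. The count of members higher at an adjusted p under 0.05 was 1, against 6.48% of all genes. It became 2 with library size alone, where 833 of 12385 genes were higher. By DESeq2 it became 3, where 1361 of 12380 genes were higher. When single rats were left out it ran from 0 (without control rat 2) to 5 (without control rat 9). In those fits 3.38% and 8.41% of all genes were higher. In the 7 libraries of positive length slope the member count became 6, with 1 lower, against 13.6% and 15.8% of all genes. By the authors' rule 1 member was higher by DESeq2, and leaving out single rats gave 0 to 1 (Rps2, without cholate rat 3). Scaled to the canonical members, 1 was lower (Rps10) in those 7 libraries and 2 were higher (Rps2 and Rps29) with copies added to their genes. The difference in the subunit ratio, 0.12, was -0.025 by sum of CPM and 0.060 with copies added, and its alternative over members with few like-named loci is not reported. The share of counts rose by 0.153 percentage points on cholate, and by 0.281 with copies. The cause of these shifts was not tested.

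Signs turned for 5 named members, none of which passed the test in either direction. Rpl10l was -0.060 with library size alone, -0.016 with upper quartile scaling, -0.038 by limma-voom, -0.14 with the length offset and -0.44 in the 7 libraries. It was -0.64 to 0.68 with single rats left out. Rps19bp1 was -0.021 with library size alone, -0.16 with the length offset and -0.0062 (without cholate rat 8) to 0.10 with single rats left out. Rps13 was 0.086 in the 7 libraries, 0.25 with copies and -0.37 to 0.19 (without control rat 9) with single rats left out. Rps7 was 0.20 with copies, and Rps4x was -0.38 to 0.096 (without control rat 9) with single rats left out. Rpl36 passed an adjusted p of 0.05 by DESeq2, Rps10 passed it in the 7 libraries and Rps2 missed it without control rat 2. The other 415 values of named members under alternatives kept direction and side of that threshold. The 7 libraries, and the copies added, were chosen after seeing the data. Genes with under 10 CPM, and genes outweighed by copies, limit what can be seen.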
